A study of Rattus norvegicus with 6 samples.

Results

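The RNA interference machinery was followed in rat atrial fibroblasts as the 10 genes Ago1, Ago2, Ago3, Ago4, Dicer1, Drosha, Dgcr8, Tarbp2, Tnrc6a and Xpo5. The members were taken by symbol from the 40154 genes of the deposited gene table, and all 10 were found there and had enough counts to be tested. Fibroblasts came from Sprague-Dawley rats 1 to 3 days old and were separated from atrial myocytes by their faster adhesion to the dish. The cells were transfected with a control siRNA (si-NC, 3 libraries) or with siRNA against GPD1L (si-GPD1L, 3 libraries) and were sequenced as poly(A) RNA 24 h later, and the labels give both groups the treatment "Atrial differentiation". Both groups therefore carried transfected siRNA, and cells without transfection are not analysed here. The labels do not say whether the 3 libraries of a group came from separate cultures or animals, so the p-values measure the spread between these libraries, which may be technical. The labels also do not say whether the final digit of the si-GPD1L names numbers replicates of 1 siRNA or different siRNAs. Here the levels ask how much of the siRNA machinery the cells transcribe, and the comparison asks whether that transcription differed between the groups.

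Small RNAs reach their targets in steps. In the nucleus, Drosha and its partner Dgcr8 cut the hairpin out of a primary microRNA transcript, and exportin 5 (Xpo5) carries it to the cytoplasm. Dicer1, helped by the RNA-binding protein Tarbp2, cuts the hairpin to a short duplex, and an Argonaute protein keeps 1 strand as a guide. The Argonaute then recruits a GW182 protein such as Tnrc6a, which brings in the enzymes that shorten the poly(A) tail and remove the cap of the target mRNA. A synthetic siRNA duplex enters at the Argonaute step. Ago2 is the Argonaute known for cutting a fully matched target, and the other Argonautes act mainly through the GW182 proteins.

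Library totals ran from 16892255 to 20149732 counts. Gpd1l, the target of the siRNA, had 262, 332 and 313 normalized counts in si-NC and 220, 208 and 302 in si-GPD1L (replicates 1 to 3; counts scaled to a common library size). The library labelled si-GPD1L replicate 3 lay inside the si-NC range for the target, and the log2 fold change of Gpd1l was -0.31 ± 0.15 (SE; edgeR adjusted p = 0.234). Every direction given here is therefore one between libraries labelled si-GPD1L and si-NC. Summed TPM (a level corrected for gene length and library depth) of 9 fibroblast markers was 33702 to 43531 in si-NC, and that of 8 cardiomyocyte markers was 2577 to 2719, so transcripts of cardiomyocytes were present. In si-GPD1L the sums were 40954 to 44080 and 2364 to 2527. None of the 8 cardiomyocyte and none of the 6 macrophage markers passed the test, 2 of the 9 fibroblast markers were lower, and 3 of the 6 endothelial markers were higher, with sums of 28.9 to 38.1 TPM (si-NC) against 48.2 to 51.4 (si-GPD1L). Of 5 smooth muscle and pericyte markers, 1 was higher and 1 lower. No marker was at 0 in all libraries, and the part of these other cells in the values below was not tested. In such bulk samples, fewer cells of a type and less RNA per cell cannot be told apart.

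One library stood apart. In si-NC replicate 1, long genes had fewer normalized counts than in the other si-NC libraries, by a median log2 difference of -0.15 over the longest of 4 equal bins of the genes tested by length, against 0.15 over the shortest bin. A smaller trend in the same direction lay between si-NC replicates 2 and 3. The median of replicate 2 minus replicate 3 was 0.072 over the shortest bin and -0.053 over the longest. Leaving out si-NC replicate 1 therefore does not free the si-NC group of it. The machinery is made of long genes, and 7 of the 10 members lie in the longest bin (4965 bases or more). Of the members, 8 had their lowest value of all 6 libraries in si-NC replicate 1, and the shortest, Tarbp2 (1764 bases), had its highest there. Ago3 stood lowest in that library against the other si-NC libraries (log2 difference -0.69), followed by Ago1 (-0.58), Ago2 (-0.54) and Dicer1 (-0.49). Ago2 lies in the next to shortest bin in the deposited table (2588 bases), where the median difference of all genes was 0.037. The comparisons of the members are therefore given with and without si-NC replicate 1.

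**Figure D1:**
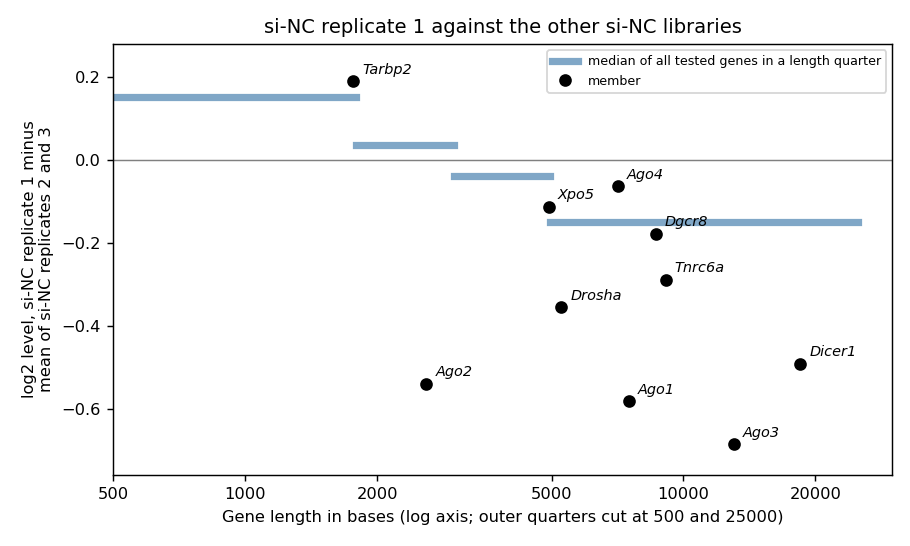
Each black point is a member, placed by its gene length in bases (log axis) and by its log2 level in si-NC replicate 1 minus the mean of si-NC replicates 2 and 3. Blue bars are the medians of all genes tested in each length bin, which fall from 0.15 for the shortest to -0.15 for the longest, and 9 of the 10 members lie below 0.

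All 10 members were transcribed in control fibroblasts, over a range of about 1.86 to 37.1 TPM. Xpo5 stood first (37.1 ± 3.57 TPM, SD, n = 3), at the 72.9th percentile of the genes tested in si-NC. Tarbp2 followed with 30.7 ± 0.933 TPM, then Ago2 with 25.8 ± 6.64, Tnrc6a with 24.2 ± 3.93, Drosha with 23.4 ± 4.51 and Ago1 with 19.2 ± 5.03 (SD, n = 3). Dgcr8 had 15.3 ± 1.76 TPM, close to the median gene tested (14.03 TPM), and Dicer1 had 8.67 ± 1.96. Ago3 and Ago4 were the least abundant, with 3.38 ± 1.000 and 1.86 ± 0.161 TPM, at the 25.0th and 17.5th percentiles. From Tarbp2 down to Dgcr8, each gene overlapped the next in its si-NC range. Within each si-NC library, Tarbp2, Tnrc6a, Drosha, Ago1 and Dgcr8 nevertheless stood in this order. Only the place of Ago2 moved, from below Drosha in si-NC replicate 1 to above Tarbp2 in si-NC replicate 3. Xpo5 lay above Tarbp2 in every si-NC library, and Dicer1, Ago3 and Ago4 each lay below the gene before them without overlap. In si-GPD1L the same 3 genes closed the order and Xpo5 again led it (46.8 ± 1.65 TPM, SD, n = 3). TPM divides by the gene length of the deposited table, which is shorter for Ago2 (2588 bases) than for Ago1 (7503) or Dicer1 (18478), and the levels of these genes depend on those lengths.

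**Figure D2:**
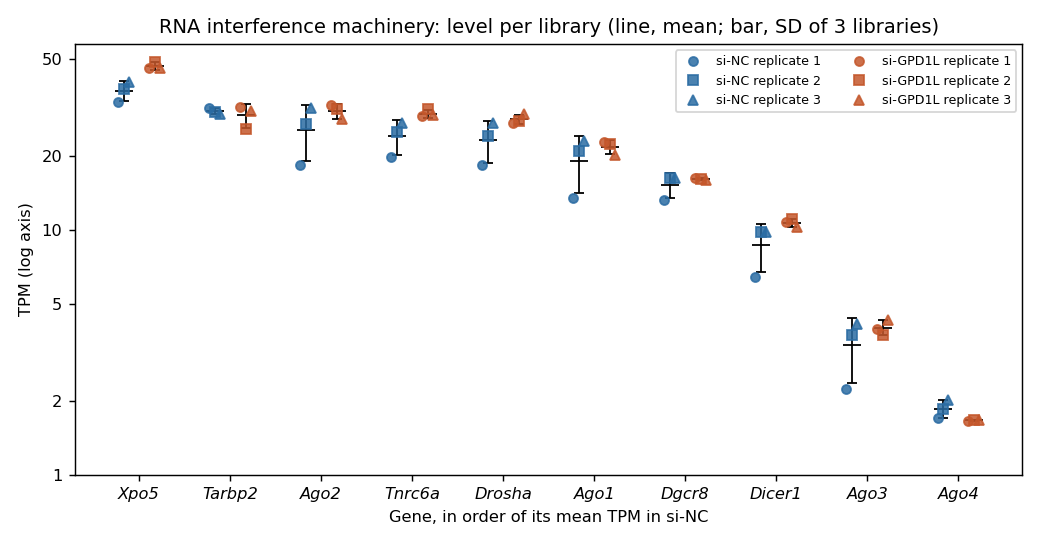
TPM on a log axis is shown for each member in the 6 libraries, with blue for si-NC, orange for si-GPD1L, the marker shape for the replicate, a line for the mean and a bar for the SD of 3 libraries. Levels run from Xpo5 at 37.1 TPM in si-NC down to Ago4 at 1.86, and si-NC replicate 1 is the lowest si-NC point in 9 of the 10 genes.

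The 4 Argonautes differed in level. Ago2 held 51.3% ± 0.665 (SD, n = 3) of the summed Argonaute TPM in si-NC, Ago1 held 38.2% ± 0.755, Ago3 6.67% ± 0.376 and Ago4 3.84% ± 0.782. In si-GPD1L the shares were 52.7% ± 0.672 for Ago2, 37.5% ± 0.412 for Ago1, 6.90% ± 0.866 for Ago3 and 2.87% ± 0.17 for Ago4. In raw counts, which favour long genes, Ago1 came first with 53.7% ± 0.594 of the Argonaute counts in si-NC and Ago2 second with 24.9% ± 0.522. The order of Ago1 and Ago2 thus turned on the length correction, while Ago4 was last on both scales. Ago1, Ago3 and Ago4 share a cluster on the minus strand of chromosome 5 between 144355792 and 144557165 (coordinates of the deposited table, build rn6 in the submitters' processing notes), a span of 201374 bases with 1 other annotated gene inside it. That gene, LOC108351033, overlaps Ago4 on the same strand and had 0 to 2 counts per library. The effect of this overlap on the Ago4 counts was not tested. Ago2 lies apart, at 114339607 to 114377277 of chromosome 7, minus strand. The Argonautes are paralogs with similar sequence, and reads that match several of them could have been split or dropped in the authors' counting.

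None of the 10 members passed the test between si-GPD1L and si-NC (adjusted p under 0.05, edgeR's quasi-likelihood test), against 6.36% of the 14852 genes tested. With a log2 fold change over 1 asked for as well, the share over all genes was 1.62%. An unadjusted p-value under 0.05 was reached by 2 members, Xpo5 and Tnrc6a, against 22.4% of all genes. DESeq2's Wald test also called 0 members, and edgeR's exact test called 1, Xpo5. The log2 fold change was above 0 for 8 members and below 0 for 2, with a median of 0.18, against a median of -0.0049 and 49.1% above 0 over all genes tested. Without si-NC replicate 1, 5 members were above 0 and 5 below, and the median was -0.0054, with 1 member called (Xpo5) against 10.1% of all genes. With the trend on gene length removed from each library, 7 were above 0, the median was 0.074, and again Xpo5 alone was called, against 8.46% of all genes. The 95% intervals of the 10 members lay between 67.9% and 142.7% of the si-NC level, so that a change of 1.5-fold in either direction was outside each of them.

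**Figure D3:**
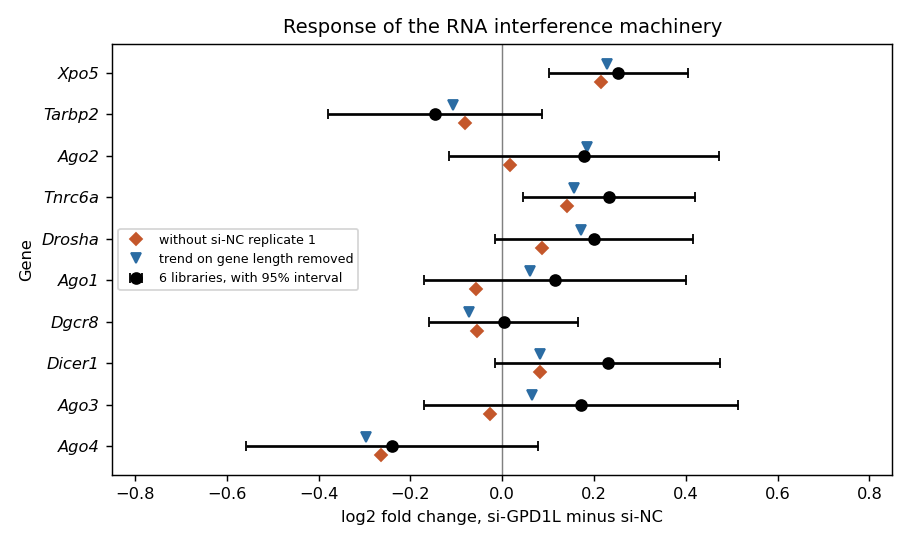
The log2 fold change of each member, si-GPD1L minus si-NC, is drawn as a black point with its 95% interval (edgeR, 3 libraries a group), beside the value without si-NC replicate 1 (orange) and the value with each library's trend on gene length removed (blue). The intervals of Xpo5 and Tnrc6a do not reach 0 before adjustment, and the values of Ago1, Ago3 and Dgcr8 turn below 0 without si-NC replicate 1.

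At the export step, Xpo5 had 1353, 1431 and 1497 normalized counts in si-NC and 1675, 1760 and 1664 in si-GPD1L. Every si-GPD1L library lay above every si-NC library, a pattern held by 15.1% of all genes tested. Its log2 fold change was 0.25 ± 0.070 (SE; 95% interval 0.10 to 0.40; edgeR adjusted p = 0.0514), which corresponds to 119.1% of the si-NC level and falls short of the threshold. Without si-NC replicate 1, its log2 fold change was 0.21 and its adjusted p was 0.0206, and with the trend on gene length removed they were 0.23 and 0.0335. Over all 15 alternatives the log2 fold change stayed between 0.21 and 0.29 and the adjusted p ran from 0.0206 to 0.252, under 0.05 in 5 of them, including the fit without si-NC replicate 3 (0.0383). The Xpo5 locus (NCBI gene 363194) spans 17125201 to 17163170 of chromosome 9, minus strand.

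Of the nuclear enzymes, Drosha, the ribonuclease III that cuts primary microRNA hairpins, had 807, 978 and 1090 normalized counts in si-NC and 1074, 1074 and 1152 in si-GPD1L. The groups overlapped, through si-NC replicate 3, and the log2 fold change was 0.20 ± 0.099 (SE; edgeR adjusted p = 0.262), or 0.088 without si-NC replicate 1. Dgcr8, which binds the hairpin for Drosha, had 947, 1082 and 1061 counts in si-NC and 1046, 1028 and 1023 in si-GPD1L. Those 3 si-GPD1L values lay inside the si-NC range, with a log2 fold change of 0.0030 (95% interval -0.16 to 0.16), or -0.055 without si-NC replicate 1. In TPM, the ratio of Drosha to Dgcr8 was 1.40, 1.48 and 1.69 in si-NC and 1.68, 1.71 and 1.85 in si-GPD1L, so the libraries of the groups overlapped.

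In the cytoplasm, Dicer1, the ribonuclease III that makes the short duplex, had 980, 1387 and 1368 normalized counts in si-NC and 1477, 1499 and 1402 in si-GPD1L. The groups did not overlap, a pattern held by 29.0% of all genes tested. Its log2 fold change was 0.23 ± 0.11 (SE; edgeR adjusted p = 0.254) and was 0.083 without si-NC replicate 1. Tarbp2, the Dicer1 partner, went the other way, with 462, 412 and 397 counts in si-NC, 418, 334 and 398 in si-GPD1L and a log2 fold change of -0.15 ± 0.11 (SE; edgeR adjusted p = 0.455). The libraries overlapped in Tarbp2, and the value was -0.081 without si-NC replicate 1. Both differences shrank when that library was left out. The ratio of Dicer1 to Tarbp2 in TPM was 0.203 in si-NC replicate 1, 0.322 and 0.329 in the other si-NC libraries, and between 0.336 and 0.428 in si-GPD1L.

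Among the Argonautes, Ago2 had 396, 540 and 617 normalized counts in si-NC and 625, 594 and 540 in si-GPD1L. Its si-NC replicates 2 and 3 covered most of the si-GPD1L range, and its log2 fold change of 0.18 ± 0.14 (SE; edgeR adjusted p = 0.470) was 0.016 without si-NC replicate 1. Ago1 (log2 fold change 0.11, adjusted p = 0.662) and Ago3 (0.17, adjusted p = 0.565) changed sign in that setting, to -0.057 and -0.027. Ago4 had the opposite sign, with 99.9, 100.5 and 108 counts in si-NC and 87.2, 87.2 and 86.8 in si-GPD1L. The groups of Ago4 did not overlap, a pattern held by 29.0% of all genes tested. Its log2 fold change was -0.24 ± 0.15 (SE; edgeR adjusted p = 0.361), and -0.26 without si-NC replicate 1. With 80 to 111 raw counts per library, Ago4 was the member with the least depth. Tarbp2 and Ago4 kept a negative log2 fold change in all 15 alternatives each.

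Tnrc6a, the GW182 protein that links an Argonaute to deadenylation, had 1491, 1757 and 1887 normalized counts in si-NC and 1970, 2087 and 1977 in si-GPD1L. The groups did not overlap, and the log2 fold change was 0.23 ± 0.086 (SE; 95% interval 0.046 to 0.42; edgeR adjusted p = 0.132). Without si-NC replicate 1 it was 0.14 (adjusted p = 0.132), and without si-NC replicate 3 it was 0.31 (adjusted p = 0.0451), the one setting of 15 in which Tnrc6a passed. Together Xpo5, Tnrc6a, Dicer1 and Ago4 were the 4 members whose groups did not overlap (29.0% of all genes tested), 3 of them higher (15.1% of all genes) and 1 lower. The spread within si-NC was wider for most members, with a coefficient of variation from 4.58% (Ago4) to 25.6% (Ago3), against 0.265% (Ago4) to 11.3% (Tarbp2) in si-GPD1L. At the 80 to 111 raw counts of Ago4, both of its coefficients lie below counting error. They are no measure of the spread between libraries.

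The transcript table held 36 RefSeq transcripts of the members, from 1 for Ago2 and Xpo5 to 9 for Dicer1. Transcripts of 1 gene shared reads, so they are not independent of each other. None of the 36 passed the test (0 at an adjusted p under 0.05, against 5.89% of the 37822 transcripts tested), and their log2 fold changes ran from -0.26 to 0.24. The single Xpo5 transcript had the smallest adjusted p (0.0646, edgeR's quasi-likelihood test). The long and short annotated forms of Ago3 gave 0.21 (12087 bases) and 0.00027 (3150 bases), and neither passed the test.

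Further genes of the pathway were read from 6 lists with 84 genes, of which 79 were tested. Of these 79, 10 were higher and 1 was lower in si-GPD1L (adjusted p under 0.05), against 4.03% higher and 2.33% lower over all genes. Of the 10 higher genes, 6 came from the list of interferon-linked double-stranded RNA binders. The lists were chosen with earlier results of these data known, so the pooled counts do not test the pathway. Without si-NC replicate 1 the calls by list, in the order given below, were 0, 0, 2, 4, 2 and 7, with 10.1% of all genes called. Among 3 tested GW182 paralogs and PIWI Argonautes and among 11 microprocessor and export partners, 0 passed in edgeR's quasi-likelihood test. An unadjusted p under 0.05 was reached by 1 and 3 of them, against 22.4% of all genes tested. DESeq2's Wald test and edgeR's exact test called 0 in both lists as well. Tnrc6c, the paralog with the highest level (17.3 TPM in si-NC), had a log2 fold change of 0.0078. Of the germline Argonautes, Piwil1 was at 0 counts in all 6 libraries and Piwil4 had too few counts to be tested. Piwil2 had 10, 19 and 14 raw counts in si-NC and 20, 34 and 22 in si-GPD1L. Its groups did not overlap, a pattern held by 29.0% of all genes tested. Piwil2 did not pass (log2 fold change 0.79 ± 0.35, SE; unadjusted p = 0.0421, edgeR adjusted p = 0.204; log2 fold change 0.57 without si-NC replicate 1). Hnrnpa2b1, an RNA-binding protein of the nucleus and the most abundant microprocessor partner (1007 TPM in si-NC), had 8360 ± 1198 normalized counts in si-NC and 6960 ± 177 in si-GPD1L (SD, n = 3) without passing the test (adjusted p = 0.123). Its si-NC counts were 9743, 7687 and 7650, and its log2 fold change of -0.26 was -0.14 without si-NC replicate 1. The median log2 fold change of the microprocessor list was -0.12, with values from -0.26 to 0.085.

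Of 21 Dicer partners, loading chaperones and cofactors, 1 passed, against 6.36% of all genes tested. Mov10, an RNA helicase found with Argonautes and known to be induced by interferon, rose from 394, 459 and 457 normalized counts in si-NC to 906, 860 and 760 in si-GPD1L (log2 fold change 0.95 ± 0.096, SE; edgeR adjusted p = 4.4e-05). It passed in all 14 alternatives, with values from 0.88 to 1.01. The other 20 did not pass, among them Hsp90ab1, the HSP90 chaperone with the highest level of the list (1691 TPM in si-NC), at a log2 fold change of 0.042.

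Of 26 tested genes for deadenylation, decapping and decay, 2 rose and 1 fell, against 4.03% higher and 2.33% lower over all genes. The list median was -0.0060. Xrn1, the exonuclease that degrades decapped mRNA, rose from 1083 ± 78.8 to 1385 ± 1.20 normalized counts (SD, n = 3), a log2 fold change of 0.35 ± 0.073 (SE; edgeR adjusted p = 0.0134). Cnot1, the scaffold of the CCR4-NOT deadenylase, rose by 0.31 on the log2 scale ± 0.078 (SE; edgeR adjusted p = 0.0362), and Cnot6, one of its catalytic subunits, fell by 0.34 ± 0.070 (SE; edgeR adjusted p = 0.0139). Without si-NC replicate 2 and without each si-GPD1L library in turn, Xrn1 (edgeR adjusted p from 0.0590 to 0.0932) and Cnot1 (0.0964 to 0.177) lost the call. Cnot6 lost it without si-GPD1L replicate 1 (0.0868) and replicate 2 (0.122). Pabpc1, the poly(A)-binding protein that the GW182 proteins contact, was the most abundant of the list (1772 TPM in si-NC) and had a log2 fold change of -0.053 (adjusted p = 0.718).

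Among 11 tested genes for tailing, trimming and turnover of small RNAs, 1 passed, against 6.36% of all genes tested. Pnpt1, a mitochondrial exoribonuclease also known as interferon-induced, rose from 552 ± 72.2 to 941 ± 105 normalized counts (SD, n = 3; log2 fold change 0.77 ± 0.11, SE; edgeR adjusted p = 0.000919). Xrn2, a nuclear exonuclease, had a log2 fold change of 0.23 (adjusted p = 0.0710).

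The widest differences among the 6 lists were those of the list of interferon-linked double-stranded RNA binders. Most of these proteins can compete with the Dicer machinery for the same duplexes or edit and sense them. Of 7 listed, 6 rose, against 4.03% of all genes tested, and the list median was 1.98. Dhx58, a helicase without signalling domain, rose from 13.8, 14.8 and 12.7 normalized counts in si-NC to 679, 711 and 593 in si-GPD1L (log2 fold change 5.57 ± 0.15, SE; edgeR adjusted p = 1.14e-10). Ddx58, the sensor RIG-I, rose by 3.04 on the log2 scale, Ifih1, the sensor MDA5, by 2.67, and Eif2ak2, the kinase PKR, by 1.98. Adar, which edits adenosines in duplexes, rose from 808, 1088 and 1093 to 2963, 3303 and 3177 counts (log2 fold change 1.66 ± 0.11, SE; edgeR adjusted p = 3.61e-07). Zc3hav1, an antiviral zinc finger protein kept in this list though not a double-stranded RNA binder, rose by 0.81. The 6 genes passed in each of the 14 alternatives. Adarb1, the other editing enzyme, had a log2 fold change of 0.28 and did not pass in edgeR's quasi-likelihood test (adjusted p = 0.0646). It passed in 4 of 14 alternatives, DESeq2's Wald test (0.0441), edgeR's exact test (0.0338), no filter beyond 1 count (0.0151) and the fit without si-NC replicate 1 (0.0279), and its adjusted p reached 0.261 in the others. In the same libraries the log2 fold changes of Dicer1, Tarbp2, Ago2 and Drosha lay between -0.15 and 0.23.

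**Figure D4:**
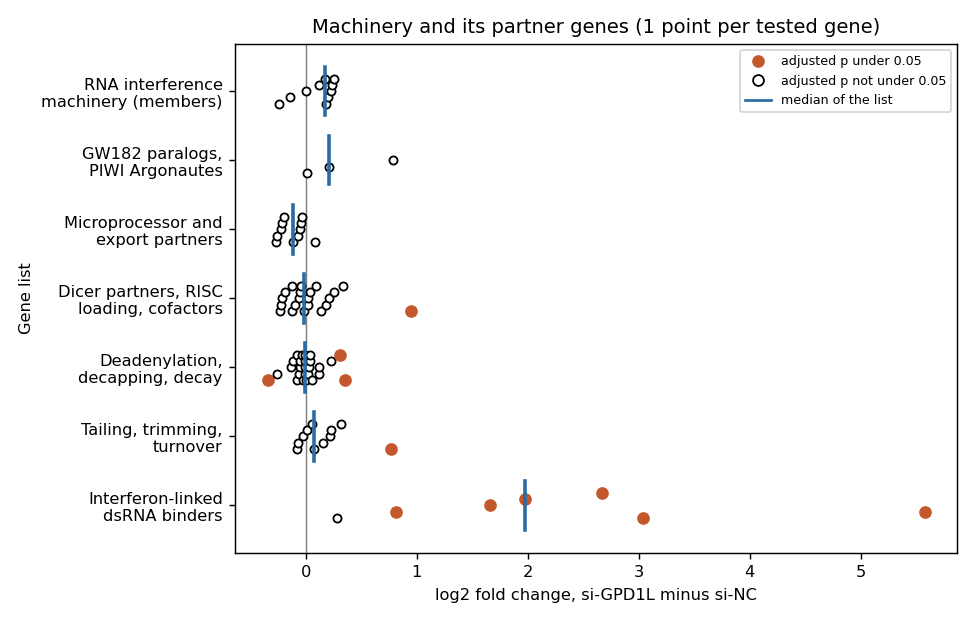
Each point is a tested gene, placed by its log2 fold change (si-GPD1L minus si-NC, 3 libraries a group) in the row of its list, filled orange where the adjusted p is under 0.05, and the blue line is the list median. All 10 members lie between -0.24 and 0.25 and are open. In the list of double-stranded RNA binders, 6 of the 7 genes are filled and reach 5.57.

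The gene starts were searched for the core of the interferon-stimulated response element, GAAA followed by any 2 bases and GAAA again, on either strand, in RefSeq windows of build GRCr8 from 250 bases before to 50 after each start. A window was given for 9 of the 10 members (not for Ago2) and 0 of the 9 held the letters, against 3.03% of 12623 windows of genes tested. Among the other lists it was held by 1 of 19 windows of Dicer partners and cofactors (Fmr1), 0 of 2 of GW182 and PIWI genes, 0 of 11 of microprocessor partners, 0 of 21 of decay genes and 0 of 11 of tailing genes. Of 4 windows in the list of double-stranded RNA binders, 2 held it. The stretches of these 2 are shown, with the core in capitals, and were picked because both genes rose. Fmr1 also held the core and did not pass the test (log2 fold change 0.020, edgeR adjusted p = 0.903), and its stretch is not shown. Whether the letters go with a rise was not tested. The stretches are chr3:67684010-67684035 for Ifih1 (minus strand) and chr6:21941130-21941155 for Eif2ak2 (plus strand), with the core at positions -59 to -50 and -16 to -7 from the start.
Ifih1: agagaatcGAAACAGAAAccgatgtg
Eif2ak2: tccgccggGAAAACGAAAcagagaga
A match of letters is not a measured site, and no match says only that these letters are not in the window.

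Primary microRNA transcripts, the substrate of Drosha and Dgcr8, leave counts at the annotated hairpins of the gene table. Of 452 such loci, 301 were at 0 in all libraries and 20 had enough counts to be tested. In edgeR's quasi-likelihood test 0 of the 20 had an adjusted p under 0.05, against 6.36% of all genes tested. An unadjusted p under 0.05 was reached by 1, against 22.4% of all genes. The median log2 fold change was -0.100, with 5 above 0, against 49.1% above 0 over all genes. The 20 loci are 59 to 137 bases long and lie in the shortest length bin. Over all genes of that bin the median log2 difference was -0.075, and -0.031 with si-NC replicate 1 left out. The part of gene length in the values of the loci was not tested. These loci were chosen after the values of the members were seen. Mir22 had raw counts of 113, 78 and 93 in si-NC and 83, 118 and 74 in si-GPD1L (log2 fold change -0.068, adjusted p = 0.871), and Mir199a2 had 49.7 ± 4.70 and 58.4 ± 2.59 normalized counts (SD, n = 3; log2 fold change 0.23, adjusted p = 0.510). Mir145 had the smallest p-value, with raw counts of 32, 30 and 29 in si-NC and 13, 20 and 16 in si-GPD1L (log2 fold change -0.91 ± 0.28, SE; edgeR adjusted p = 0.0752). The groups of Mir145 did not overlap, at few counts. This held for 3 of the 20 loci, against 29.0% of all genes tested. Mir210, the locus of the microRNA the study is about, had 0 counts in each library, which allows up to 3 counts (counting error only). Poly(A) libraries read the primary transcript or its host gene, not the mature microRNA, and 5 of the 20 loci lie inside another gene on the same strand. Of the mature products of Mir22, Mir199a2 and Mir210, 4 are given from RefSeq (build GRCr8), with the seed that an Argonaute presents to its targets (bases 2 to 8) in capitals. The products rno-miR-22-5p and rno-miR-210-5p are not shown.
rno-miR-22-3p: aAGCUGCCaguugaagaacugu
rno-miR-199a-5p: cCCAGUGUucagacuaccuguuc
rno-miR-199a-3p: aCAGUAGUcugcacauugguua
rno-miR-210-3p: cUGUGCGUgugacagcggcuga
The 4 seeds differ from each other. The mature sequences lie at chr10:60805387-60805408 (plus strand), chr13:77116255-77116277 and chr13:77116294-77116315 (plus strand), and chr1:205755946-205755967 (minus strand).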

How the data were processed

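Poly(A) RNA-Seq of 6 libraries (si-NC and si-GPD1L, 3 each) was analysed. The authors deposited whole-number read counts per gene and per transcript, without normalization, and TPM values scaled for gene length and library depth. The submitters' processing notes name HISAT2 2.1.0, HTSeq 0.12.4 and build rn6. The strand setting is not given in the sources used here. The deposited comparison of the groups (values per library, fold changes and p-values) and the enrichment tables were not used. From the counts, edgeR 4.0.16 in R 4.3.3 kept 14852 genes (filterByExpr), normalized by TMM and applied the quasi-likelihood test with Benjamini-Hochberg adjustment over all genes. Normalized counts are scaled to the mean library size, and 95% intervals come from the same fit (biological coefficient of variation 0.0894), which was tested on simulated data. TPM was used for levels only and not tested. Calls followed the paper's adjusted p under 0.05, also without its log2 fold change over 1. DESeq2 1.42.0, edgeR's exact test, other normalizations and filters, the replicate number as a block and each library left out were alternatives, and the removal of each library's trend on gene length was added after seeing the data. Within each group the libraries were distinct beyond counting noise (chi-square per degree of freedom 4.11 to 29.8). Members, lists and tests were chosen with earlier results of these data known. Genes named outside the members were those of each list past the test, at most 8, and the one with the highest TPM, while the PIWI genes, Fmr1 and the microRNA loci were chosen after their values were seen. Tut4, Tut7, Tent2 and Ipo8 were matched by NCBI gene ID. Protein sequences planned for the Argonautes are not used here. Figures were drawn with matplotlib 3.10.9.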

Additional observations from a re-analysis of the deposited data

How the results depend on the processing

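The count of all genes with an adjusted p under 0.05 (945) was 1528 with edgeR's exact test, 1929 with no filter beyond 1 count and 361 to 1531 with 1 library left out, while the count past both thresholds (240) ran from 164 to 359. The count of members (0) was 1 with the exact test, 1 with no filter and 1 with the length trend removed (Xpo5 each time), and 0 to 2 with 1 library left out, the 2 being Xpo5 and Tnrc6a without si-NC replicate 3. Microprocessor and export partners (0) had 2 with no filter and 0 to 1 with 1 library left out. Dicer partners and cofactors (1) had 2 with the exact test, 2 with no filter, 2 with the length trend removed and 1 to 2 with 1 library left out. Deadenylation and decay genes (3) had 0 to 4 with 1 library left out, 0 without si-GPD1L replicate 1 or 2, and tailing and turnover genes (1) had 1 to 2. Double-stranded RNA binders (6) had 7, with Adarb1 added, under DESeq2's Wald test, the exact test, no filter and the fit without si-NC replicate 1. Dgcr8 turned below 0 with upper-quartile normalization (-0.021), the length trend removed (-0.072) and the transcript with the most counts (-0.017), and Tnrc6c with upper-quartile normalization (-0.016) and the length trend removed (-0.047). With 1 library left out, log2 fold changes ran from -0.057 to 0.24 for Ago1, -0.027 to 0.32 for Ago3, -0.055 to 0.038 for Dgcr8 and -0.13 to 0.14 for Tnrc6c. The causes were not tested.

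With the replicate number as a block, 921 genes passed, 0 members passed, and Xpo5 had an edgeR adjusted p of 0.0702. Deviations of same-numbered libraries from their group means correlated at -0.014, -0.006 and 0.043, so no pairing by number was seen. With 3 libraries a group, these values cannot tell whether libraries shared a culture or a batch.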
